A study of Mus musculus with 16 samples.

Results

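Across 16 libraries, 7 genes were followed: Prtn3, Mpo, Elane, Ctsg, Ms4a3, Lyz2 and Srgn. They were chosen by name, as genes of the primary granule and of early neutrophil development, and make up 7 of the 25650 genes counted. The libraries come from Ba/F3 cells, a mouse pro-B cell line that depends on interleukin-3 (IL-3) for growth, and 3' ends of polyadenylated RNA were sequenced. The libraries form 4 groups of 4: cells labelled ChimP3V3:gp130Box1/2 (ChimP3V3 here) under interleukin-6 (IL-6) at 100 ng/ml, ChimP3V3 cells in medium, cells labelled gp130:IL-6R wt (gp130:IL-6R here) under IL-6 at 100 ng/ml, and gp130:IL-6R cells in medium. The study is about synthetic receptors for IL-6 whose signal runs mainly through STAT3. The labels do not record whether IL-3 was present, how long IL-6 was given, or whether each line is a single clone, and they do not say that libraries of a group came from separate cultures. The p-values therefore measure the spread between these libraries, which may be technical, and any difference between the lines includes all that separates the lines besides the receptor.

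Primary (azurophil) granules are the first granules made by developing neutrophils, and most of their contents are transcribed at the promyelocyte stage and then switched off. Serine proteases, myeloperoxidase and lysozyme are packed in these granules on the proteoglycan serglycin, which holds basic proteins through its sulphated side chains. In mouse bone marrow these genes are regulated by factors that include C/EBP proteins, PU.1, MYB and RUNX1, and Ba/F3 cells, though of pro-B origin, are used as a growth assay for cytokine receptors and not as a model of granulopoiesis.

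Most of the counts of these genes lay with Srgn, Prtn3 and Ms4a3, and these 3 genes were lower in ChimP3V3 cells than in gp130:IL-6R cells under both treatments. Prtn3 was 17.4-fold lower in ChimP3V3 cells under IL-6 and 21.3-fold lower in medium. Within gp130:IL-6R cells, IL-6 raised Srgn and Prtn3 and lowered Ms4a3, of which Prtn3 and Ms4a3 did not pass with every method used. Lyz2 and Mpo were higher too, but were tested only because of their level under IL-6 in these cells. Mpo also did not pass with every method. Within ChimP3V3 cells, IL-6 raised Ms4a3 and Srgn. The responses of Ms4a3 ran in opposite directions in the lines, and that difference passed its own test. Elane and Ctsg, which encode the other granule serine proteases, were close to absent in all 4 groups.

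Of the 7 genes, 5 passed the filter on low counts and were tested among 9540 genes with edgeR's quasi-likelihood test and Benjamini-Hochberg adjustment, called at an adjusted p under 0.05. Elane and Ctsg did not pass the filter. Mpo and Lyz2 passed it only through gp130:IL-6R cells under IL-6, so a higher level there was a condition of their being tested. Levels are given as counts, or as CPM, the count per 1e6 counts of the library after scaling with TMM factors, and n is 4 libraries per group throughout. In libraries made from whole cultures, fewer cells that express a gene and less of its RNA per cell cannot be told apart.

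The promoter windows of 4 of the genes are shown here, from RefSeq on build GRCm38.p6, each running from 250 bases before the annotated start to 50 bases after it, on the strand of the gene. Prtn3 and Elane are shown because they are neighbours of shared ancestry of which Elane had at most 1 count in any library. Ms4a3 and Lyz2 are shown because theirs were the only first-listed windows of the 7 genes with a C/EBP match. Capitals mark matches to the C/EBP core TTNNGNAA and to the PU.1 core GAGGAA on either strand. The windows lie at chr10:79879417-79879716 (plus strand) for Prtn3, chr10:79886062-79886361 (plus strand) for Elane, chr19:11640802-11641101 (minus strand) for Ms4a3 and chr10:117282223-117282522 (minus strand) for Lyz2.
Prtn3: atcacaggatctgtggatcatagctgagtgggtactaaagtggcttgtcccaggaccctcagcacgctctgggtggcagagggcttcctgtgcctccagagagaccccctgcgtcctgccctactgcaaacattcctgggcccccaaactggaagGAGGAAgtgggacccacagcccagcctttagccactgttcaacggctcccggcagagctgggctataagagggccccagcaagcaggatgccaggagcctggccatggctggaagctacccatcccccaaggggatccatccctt
Elane: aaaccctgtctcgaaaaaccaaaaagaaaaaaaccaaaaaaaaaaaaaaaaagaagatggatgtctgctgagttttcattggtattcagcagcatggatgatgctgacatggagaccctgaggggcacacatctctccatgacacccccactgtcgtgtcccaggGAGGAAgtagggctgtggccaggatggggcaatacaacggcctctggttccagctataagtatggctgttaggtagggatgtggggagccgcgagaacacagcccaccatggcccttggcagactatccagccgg
Ms4a3: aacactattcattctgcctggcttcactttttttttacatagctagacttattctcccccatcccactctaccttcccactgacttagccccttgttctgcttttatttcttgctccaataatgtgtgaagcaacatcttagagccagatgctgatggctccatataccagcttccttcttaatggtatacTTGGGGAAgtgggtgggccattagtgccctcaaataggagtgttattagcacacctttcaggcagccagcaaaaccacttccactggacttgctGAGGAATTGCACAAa
Lyz2: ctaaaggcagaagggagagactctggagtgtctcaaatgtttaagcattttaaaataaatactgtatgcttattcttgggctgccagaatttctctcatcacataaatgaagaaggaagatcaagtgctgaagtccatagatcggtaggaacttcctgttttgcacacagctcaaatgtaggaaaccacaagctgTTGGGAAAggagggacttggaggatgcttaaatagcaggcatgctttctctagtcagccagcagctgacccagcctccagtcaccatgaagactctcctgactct

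The Prtn3 and Elane windows each held a single PU.1 match, from base -95 in Prtn3 and from base -85 in Elane, and no C/EBP match. The Ms4a3 window held a C/EBP match from base -59 and another from base 42, the second directly after a PU.1 match from base 36. The Lyz2 window held a C/EBP match from base -55, which overlapped a match to the MYB motif AACNG. Over the 7 first-listed windows, the PU.1 letters occurred in 5 against 28.3% of all 32851 promoter windows of the same length, and the C/EBP letters in 2 against 40.7%. AACNG occurred in 6 against 80.3%, the RUNX motif TGTGGT in 2 against 16.8%, the STAT motif TTCNNNGAA in 1, that of Ctsg, against 8.3%, and the GFI1 motif AAATCA in 0 against 14% of all windows. Both strands were searched for every motif. Elane, with 0 to 1 count per library, and Prtn3, with a summed count of 2109 in gp130:IL-6R cells under IL-6, held the same set of these motifs (MYB and PU.1). A match is a description of the letters and not a binding site, and the absence of one says only that the letters are not in this window.

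Prtn3 (ENSMUSG00000057729; chromosome 10, 79710310 to 79719008, plus strand, GRCm39) encodes proteinase 3, a serine protease of the primary granule. It stood at 22.3, 20.7, 15.5 and 23.2 CPM in ChimP3V3 cells under IL-6, against 12.5, 14.7, 17.8 and 12.9 CPM in ChimP3V3 cells in medium. The gp130:IL-6R libraries stood at 345, 374, 369 and 342 CPM under IL-6, against 299, 299, 319 and 323 CPM in medium. All 8 ChimP3V3 libraries lay far below all 8 gp130:IL-6R libraries, the IL-6 and medium libraries of gp130:IL-6R cells did not overlap, and those of ChimP3V3 cells did. Prtn3 rose 1.15-fold under IL-6 in gp130:IL-6R cells (log2 0.21, SE 0.0431, adjusted p = 0.000104, edgeR). In ChimP3V3 cells the estimate was 1.41-fold (log2 0.50, SE 0.191, 95% interval 0.08 to 0.91) with an adjusted p of 0.0567 in edgeR, which missed the threshold. Leaving out 1 library brought this value past the threshold on 2 occasions, with an edgeR adjusted p of 0.0376 without library 3 of ChimP3V3 cells under IL-6 and 0.0333 without library 3 of ChimP3V3 cells in medium. The responses of the lines differed by a log2 of 0.29 (95% interval -0.13 to 0.72), which did not pass the test (adjusted p = 0.336, edgeR). Between the lines, ChimP3V3 cells were lower by a log2 of -4.12 (SE 0.0862, adjusted p = 1.60e-34, edgeR) under IL-6 and of -4.41 (SE 0.0922, adjusted p = 1.42e-34, edgeR) in medium. With limma on log2(CPM + 1) the response of gp130:IL-6R cells lost its call (adjusted p = 0.172) and that of ChimP3V3 cells gained one (adjusted p = 0.00958).

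Elane (ENSMUSG00000020125; chromosome 10, 79722081 to 79724049, plus strand, GRCm39) encodes neutrophil elastase and begins 3073 bases downstream of Prtn3. It had 0 counts in each of the 8 ChimP3V3 libraries. The gp130:IL-6R libraries had 0, 1, 1 and 0 counts under IL-6, against 0, 0, 0 and 1 count in medium. With 3 counts taken as what a count of 0 still allows, Elane could have stood at up to 0.568 CPM in ChimP3V3 cells under IL-6 and up to 0.505 CPM in ChimP3V3 cells in medium. No difference was detectable at this depth. The intervals and limits given for low counts cover counting error only, and reads without molecular identifiers are not independent molecules.

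Ctsg (ENSMUSG00000040314; chromosome 14, 56337338 to 56340031, minus strand, GRCm39) encodes cathepsin G, another serine protease of the granule. It had 0 counts in all 4 libraries of ChimP3V3 cells under IL-6, against 0, 0, 0 and 1 count in ChimP3V3 cells in medium. For gp130:IL-6R cells the counts were 0, 1, 0 and 0 under IL-6, against 2, 0, 3 and 0 in medium. The groups overlapped in every comparison. Summed over libraries, IL-6 against medium in gp130:IL-6R cells gave 1 and 5 counts, a ratio of 0.209 with an exact 95% interval from 0.00442 to 1.87, so no difference was detectable.

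Mpo (ENSMUSG00000009350; chromosome 11, 87684407 to 87695239, plus strand, GRCm39) encodes myeloperoxidase, the heme enzyme that makes hypochlorous acid. It had 0, 0, 0 and 1 count in ChimP3V3 cells under IL-6, against 0 counts in all 4 libraries of ChimP3V3 cells in medium. Among gp130:IL-6R libraries Mpo had 13, 10, 11 and 16 counts under IL-6, against 6, 9, 3 and 5 counts in medium. Every gp130:IL-6R library under IL-6 was above every one in medium, though the highest medium library (5.39 CPM) came near the lowest under IL-6 (7.16 CPM). Mpo averaged 8.41 ± 1.31 CPM under IL-6 and 3.65 ± 1.35 CPM in medium in gp130:IL-6R cells (SD, n = 4 each). It rose 2.25-fold (log2 1.17, SE 0.359, adjusted p = 0.00653, edgeR), but DESeq2 gave an adjusted p of 0.0954 and no call. In ChimP3V3 cells the single count under IL-6 allows no fold (adjusted p = 0.391, edgeR). Between the lines Mpo fell in ChimP3V3 cells both under IL-6 (adjusted p = 4.26e-08, edgeR) and in medium (adjusted p = 6.46e-06, edgeR). Mpo was tested only because of its level in gp130:IL-6R cells under IL-6. Its rise there and its gap to ChimP3V3 cells under IL-6 therefore cannot be read as support. In summed counts scaled to library size, ChimP3V3 cells under IL-6 held 0.0224 times the Mpo of gp130:IL-6R cells under IL-6 (1 and 50 counts, exact 95% interval 0.000556 to 0.131). In medium the counts were 0 in ChimP3V3 cells and 23 in gp130:IL-6R cells, and the exact 95% interval of the scaled ratio reached up to 0.181.

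Lyz2 (ENSMUSG00000069516; chromosome 10, 117113236 to 117118226, minus strand, GRCm39) encodes the lysozyme of mouse myeloid cells, which cleaves bacterial cell walls. It had 0, 0, 0 and 2 counts in ChimP3V3 cells under IL-6, against 0, 0, 1 and 1 count in ChimP3V3 cells in medium. Among gp130:IL-6R libraries Lyz2 had 15, 14, 18 and 25 counts under IL-6, against 2, 6, 6 and 6 counts in medium. The gp130:IL-6R groups did not overlap, and library 4 was the highest of those under IL-6. In CPM these cells averaged 12.1 ± 2.67 under IL-6 and 3.26 ± 1.36 in medium (SD, n = 4 each). The estimate was 3.69-fold (log2 1.88, SE 0.362, adjusted p = 2.99e-05, edgeR), for a gene that was tested only because of its level in this group. In ChimP3V3 cells IL-6 and medium gave 2 counts each, a ratio of 1.13 with an exact 95% interval from 0.0816 to 15.5 (adjusted p = 0.957, edgeR). The difference of the responses had a log2 of -1.74 with a 95% interval from -5.20 to 1.72 and did not pass edgeR's test (adjusted p = 0.471), while limma on log2(CPM + 1) called it (adjusted p = 0.0194). Between the lines Lyz2 fell in ChimP3V3 cells under IL-6 (adjusted p = 3.37e-09, edgeR) and in medium (adjusted p = 0.000875, edgeR). A high level in gp130:IL-6R cells under IL-6 was a condition of its being tested. Its rise there and its gap to ChimP3V3 cells under IL-6 therefore cannot be read as support. In scaled summed counts, ChimP3V3 cells held 0.0311 times the Lyz2 of gp130:IL-6R cells under IL-6 (exact 95% interval 0.00369 to 0.116) and 0.104 times in medium (0.0118 to 0.428). Its near-identical copy Lyz1, which lies 5476 bases away, had 0 counts in all 16 libraries, and summing the copies left the Lyz2 values as they were. Reads that match both copies could still have been assigned to either.

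Srgn (ENSMUSG00000020077; chromosome 10, 62329612 to 62363230, minus strand, GRCm39) encodes serglycin, the proteoglycan core on which granule proteins are packed in many blood cells and not only in neutrophils. It stood at 329, 322, 298 and 339 CPM in ChimP3V3 cells under IL-6, against 277, 283, 283 and 256 CPM in ChimP3V3 cells in medium. The gp130:IL-6R libraries stood at 722, 744, 730.1 and 690.2 CPM under IL-6, against 598, 621, 649 and 615 CPM in medium. No pair of compared groups overlapped, with gp130:IL-6R cells above ChimP3V3 cells and IL-6 above medium within each line. IL-6 raised Srgn 1.17-fold in ChimP3V3 cells (log2 0.23, SE 0.0509, adjusted p = 0.000521, edgeR) and 1.16-fold in gp130:IL-6R cells (log2 0.22, SE 0.0347, adjusted p = 1.35e-06, edgeR). The difference between these responses was 0.01 on the log2 scale, with a 95% interval from -0.12 to 0.15 (adjusted p = 0.928, edgeR). Between the lines, ChimP3V3 cells were 2.24-fold lower under IL-6 (log2 -1.16, SE 0.0415, adjusted p = 3.90e-26, edgeR) and 2.26-fold lower in medium (log2 -1.17, SE 0.0426, adjusted p = 9.23e-26, edgeR). Srgn had 5 C/EBP matches in the second RefSeq window of the gene and none in the first.

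Ms4a3 (ENSMUSG00000024681; chromosome 19, 11606860 to 11618215, minus strand, GRCm39) encodes a membrane protein with 4 transmembrane segments, used in mice as a marker of granulocyte and monocyte progenitors. It stood at 20.2, 14.1, 15.5 and 15.2 CPM in ChimP3V3 cells under IL-6, against 7.61, 3.19, 9.61 and 7.44 CPM in ChimP3V3 cells in medium. For gp130:IL-6R cells the levels were 172, 167, 149.7 and 168 CPM under IL-6, against 248, 225, 228 and 232 CPM in medium. Within ChimP3V3 cells every library under IL-6 was above every library in medium, and within gp130:IL-6R cells every library under IL-6 was below every library in medium. Ms4a3 rose 2.35-fold under IL-6 in ChimP3V3 cells (log2 1.23, SE 0.248, adjusted p = 0.000139, edgeR). It fell by 0.50 on the log2 scale in gp130:IL-6R cells (SE 0.057, a 1.42-fold decrease, adjusted p = 7.91e-10, edgeR), a call that limma on log2(CPM + 1) did not make (adjusted p = 0.0603). The responses differed by a log2 of 1.73 (SE 0.254, 95% interval 1.18 to 2.29, adjusted p = 1.08e-06, edgeR), and with each library left out in turn this value stayed between 1.48 and 1.93. Between the lines, Ms4a3 was 10-fold lower in ChimP3V3 cells under IL-6 and 33.4-fold lower in medium, a log2 of -3.33 (SE 0.114, adjusted p = 8.57e-27, edgeR) and of -5.06 (SE 0.12, adjusted p = 1.56e-32, edgeR).

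**Figure D1:**
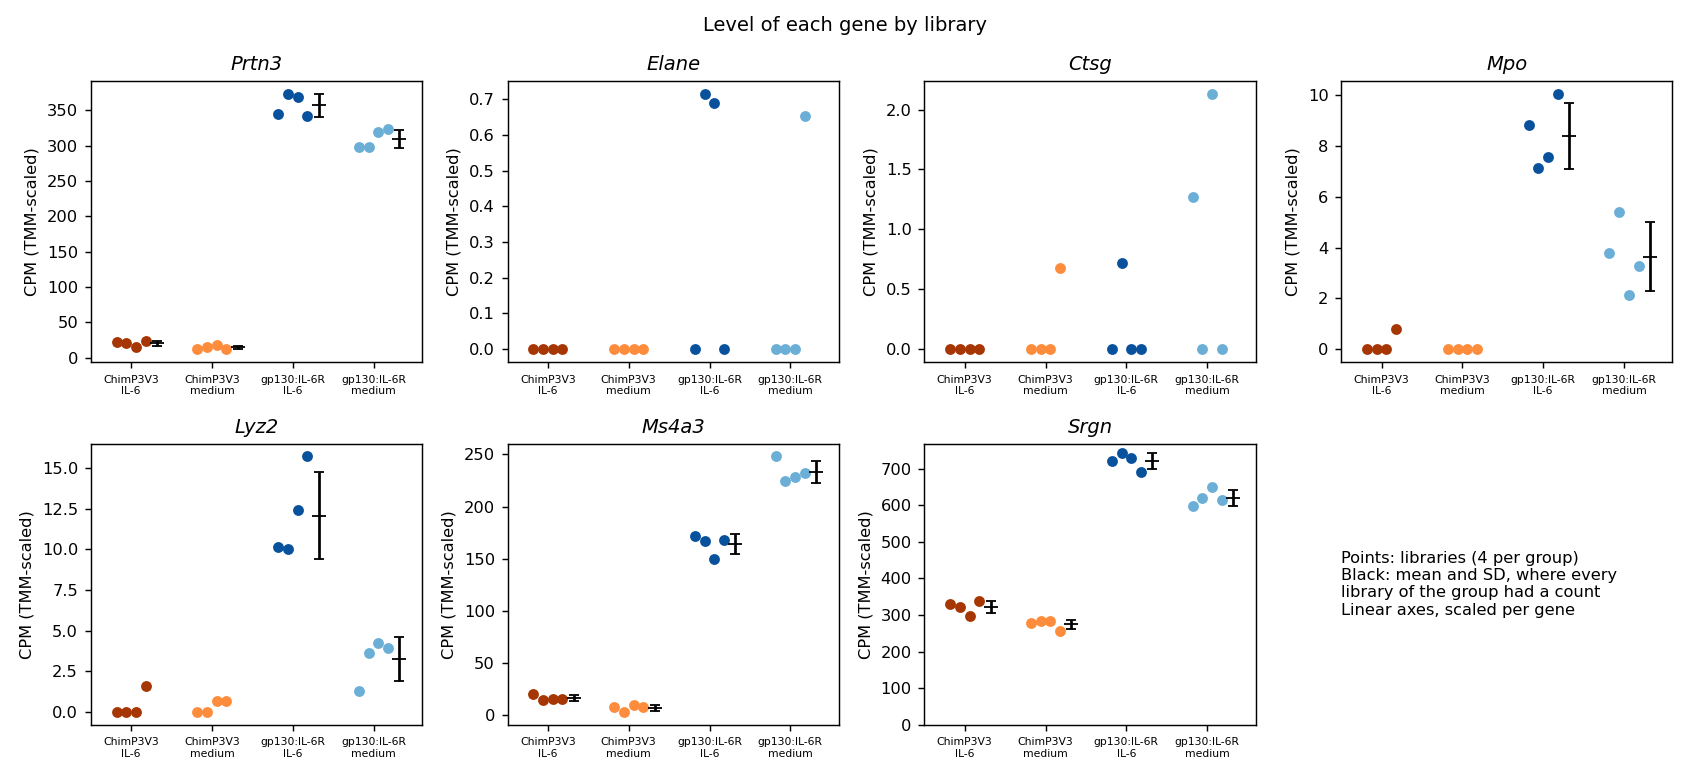
Level of each of the 7 genes in CPM (TMM-scaled, linear axes that differ between genes) in the 16 libraries. Points are libraries and black marks are the mean and SD of groups in which every library had a count; Ms4a3 lies at 14.1 to 20.2 CPM under IL-6 and 3.19 to 9.61 CPM in medium in ChimP3V3 cells, and at 149.7 to 172 CPM under IL-6 and 225 to 248 CPM in medium in gp130:IL-6R cells.

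In the IL-6 response of ChimP3V3 cells 2 of the 5 tested genes were called, both higher, beside 27.5% of the 9540 genes tested (16.2% higher and 11.4% lower). All 5 were called in gp130:IL-6R cells, 4 higher and 1 lower, beside 50% of all genes tested (25.7% higher and 24.3% lower). Of the 4, Mpo and Lyz2 were tested only because of their level under IL-6 in these cells, so this count cannot be read as support, and 2 of the 4, Prtn3 and Srgn, were free of that condition. No median over the 5 is given, because in ChimP3V3 cells Mpo and Lyz2 had too few counts to measure a response. The difference of responses was called for 1 of the 5, Ms4a3, beside 23.9% of all genes (12.4% higher and 11.5% lower). The IL-6 and medium libraries did not overlap for 2 of the 5 in ChimP3V3 cells, beside 27.4% of all genes, nor for any of the 5, Mpo and Lyz2 included, in gp130:IL-6R cells, beside 43.8%. The plot of the IL-6 responses shows that the calls in gp130:IL-6R cells ran from small, well measured changes in Prtn3 and Srgn to larger changes in Mpo and Lyz2 that rest on few counts.

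**Figure D2:**
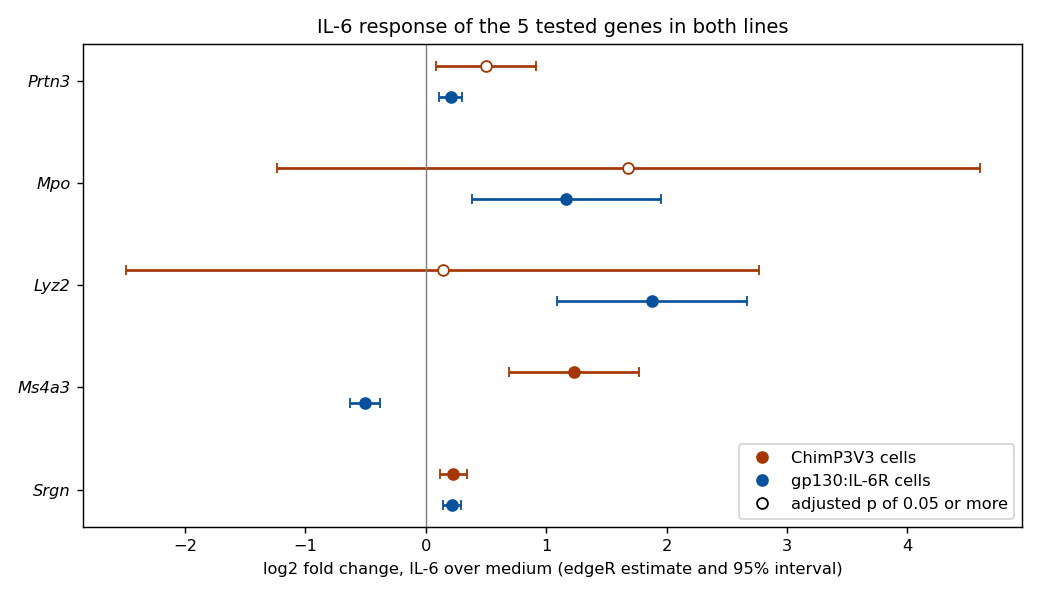
Log2 fold change under IL-6 over medium of the 5 tested genes in ChimP3V3 cells (upper mark of each pair) and gp130:IL-6R cells (lower mark). The 95% intervals were built from the edgeR estimate and its SE. Open marks did not pass an adjusted p of 0.05; Ms4a3 lies at 1.23 in ChimP3V3 cells and at -0.50 in gp130:IL-6R cells, and the intervals of Mpo and Lyz2 in ChimP3V3 cells span several log2 units.

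Between the lines all 5 tested genes were lower in ChimP3V3 cells, both under IL-6, beside 31.6% of all genes called lower and 31.2% higher (62.8% in either direction), and in medium, beside 33.5% called lower and 31.7% higher (65.1% in either direction). The lines did not overlap for any of the 5, beside 54.9% of all genes under IL-6 and 57.4% in medium. These counts include Mpo and Lyz2, which were tested because of their level in gp130:IL-6R cells, and so cannot be read as support. Ordered from the largest decrease in ChimP3V3 cells under IL-6, Prtn3 took place 172 and Ms4a3 place 211 among the 9540 genes. In medium they took places 160 and 138. Srgn took place 660 under IL-6 and place 572 in medium. Under IL-6, 1.80% of all genes were decreased at least as far as Prtn3, 2.21% as far as Ms4a3 and 6.92% as far as Srgn.

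Together the 7 genes held 0.0323% to 0.0372% of all counts in ChimP3V3 cells under IL-6 and 0.0286% to 0.0318% in medium, against 0.122% to 0.128% in gp130:IL-6R cells under IL-6 and 0.116% to 0.119% in medium. Of the counts of the 7 genes, Srgn held 88.6% to 90.6% in ChimP3V3 cells under IL-6 and 91% to 94.1% in medium. In gp130:IL-6R cells Srgn held 56.3% to 57.5% under IL-6 and 52% to 53.9% in medium. These are shares of counts, which 3' tag reads give once per molecule end, and are not a comparison of levels per length. Prtn3 gave 1 to 1.53 counts per Ms4a3 count in ChimP3V3 cells under IL-6 and 1.64 to 4.6 in medium. In gp130:IL-6R cells the ratio was 2.01 to 2.47 under IL-6 and 1.2 to 1.4 in medium, so that it lay lower under IL-6 in ChimP3V3 cells and higher under IL-6 in gp130:IL-6R cells, with no overlap in either line.

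**Figure D3:**
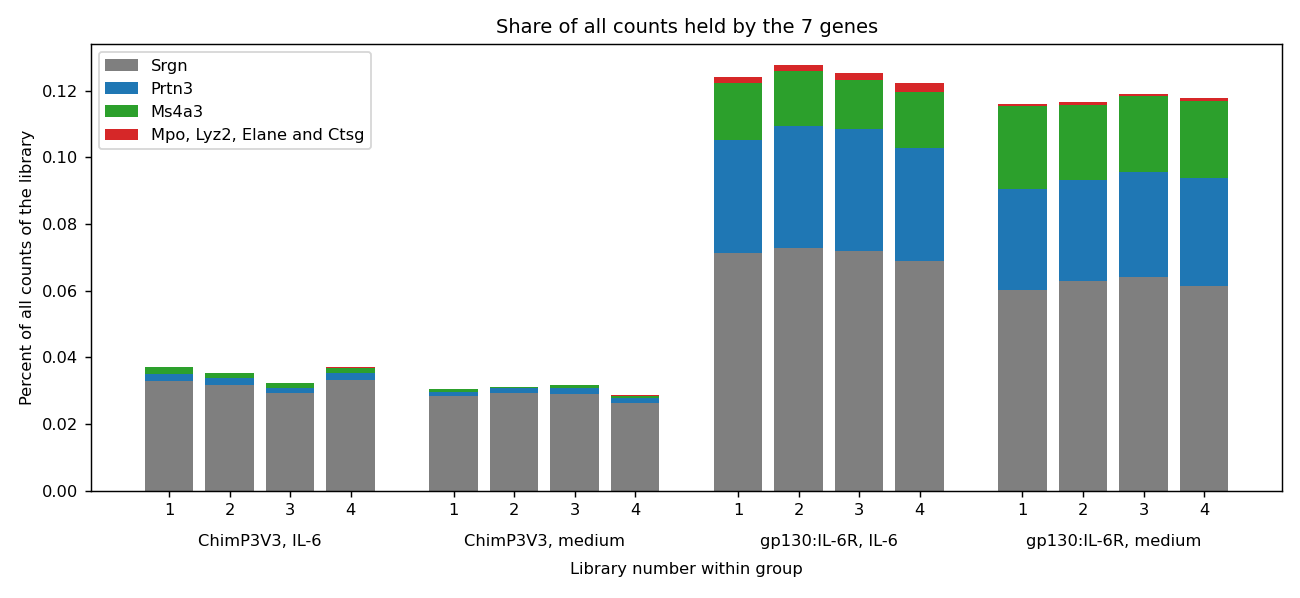
Share of all counts of each library held by the 7 genes, in percent, stacked from Srgn, Prtn3, Ms4a3 and the other 4 genes together. The 8 ChimP3V3 libraries lie between 0.0286% and 0.0372% and are mostly Srgn, and the 8 gp130:IL-6R libraries lie between 0.116% and 0.128%.

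Other proteins of the primary granule were followed in a list of 21 names, of which 17 were tested. Counts of this and the following lists stand beside 16.2% of all genes higher and 11.4% lower under IL-6 in ChimP3V3 cells, and 25.7% higher and 24.3% lower in gp130:IL-6R cells, and their medians beside 0.03 and 0.01 over all genes. In ChimP3V3 cells 7 rose and 1 fell under IL-6, with a median log2 of 0.14. In gp130:IL-6R cells 11 rose and 0 fell by edgeR's test, with a median log2 of 0.38, and 0 fell at an unadjusted p under 0.05, in DESeq2 or in limma. The lysosomal enzymes Man2b1, an alpha-mannosidase (2.32-fold, adjusted p = 1.05e-17, edgeR), and Ctsb, cathepsin B (1.51-fold, adjusted p = 1.26e-11, edgeR), rose in gp130:IL-6R cells. Such enzymes also serve the lysosomes of other cells. Ctsc, the dipeptidyl peptidase that activates the granule serine proteases, rose 1.18-fold under IL-6 in ChimP3V3 cells (adjusted p = 2.16e-05, edgeR) and 1.14-fold in gp130:IL-6R cells (adjusted p = 0.0124, edgeR). Between the lines Ctsc ran opposite to Prtn3, at 389.8 ± 10.4 CPM in ChimP3V3 cells and 163 ± 11.3 CPM in gp130:IL-6R cells under IL-6 (SD, n = 4 each).

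Prss57, a granule serine protease related to Elane, was singled out after its values were seen because it was low in ChimP3V3 cells as Prtn3 was. It had 3, 3, 0 and 2 counts in ChimP3V3 cells under IL-6 and 0, 8, 3 and 1 in medium, against 111, 94, 75 and 98 counts in gp130:IL-6R cells under IL-6 and 64, 76, 66 and 58 in medium. Prss57 rose by a log2 of 0.58 under IL-6 in gp130:IL-6R cells (adjusted p = 0.000321, edgeR). The lines did not overlap, but Prss57 was chosen for this gap, so the gap cannot be read as support. Of the 17 tested genes of this list, 4 were higher and 10 lower in ChimP3V3 cells under IL-6, beside 31.2% and 31.6% of all genes. Epx, the eosinophil peroxidase and a paralog of Mpo, did not pass the filter. Its summed counts were 30 under IL-6 and 10 in medium in ChimP3V3 cells, a scaled ratio of 3.38 (exact 95% interval 1.61 to 7.75), and 26 under IL-6 and 19 in medium in gp130:IL-6R cells.

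Among 26 early neutrophil and progenitor genes 13 were tested. Of the tested genes, Gata2 and Cpa3 are also among the mast cell and basophil markers given below. Gata2 is counted as a rise in both lines, and Cpa3 in ChimP3V3 cells. Gfi1, Mgst1, Fcnb and Csf3r had at most 7 summed counts in any group and were not tested. In ChimP3V3 cells 8 rose and 1 fell under IL-6, with a median log2 of 0.33 over the 12 with a count. In gp130:IL-6R cells 9 rose and 0 fell by edgeR's test, with 0 lower also at an unadjusted p under 0.05, in DESeq2 and in limma. Of the 9, 8 did not depend on the IL-6 group of this line to pass the filter. Myb, which encodes a transcription factor of blood progenitors, rose 1.30-fold in ChimP3V3 cells (adjusted p = 1.05e-09, edgeR) and 1.59-fold in gp130:IL-6R cells (adjusted p = 3.92e-18, edgeR). The regulators Cebpa, Cebpe, Spi1 and Runx1 were singled out after their values were seen. Cebpa, the C/EBP factor of early granulocyte commitment, had 0 counts in all 8 ChimP3V3 libraries, whereas in gp130:IL-6R cells it had 39, 43, 44 and 52 counts under IL-6 against 29, 30, 20 and 22 in medium (1.84-fold, adjusted p = 0.000115, edgeR). Cebpe, the C/EBP factor of later granule genes, was higher in ChimP3V3 cells under IL-6, at 59.5 CPM, than in gp130:IL-6R cells, at 8.92 CPM (adjusted p = 3.42e-16, edgeR). Spi1, which encodes PU.1, averaged 38.0 CPM in ChimP3V3 cells and 86.8 CPM in gp130:IL-6R cells under IL-6 (adjusted p = 1.34e-12, edgeR). Runx1 was higher in ChimP3V3 cells under IL-6, at 177 CPM, than in gp130:IL-6R cells, at 33.6 CPM (adjusted p = 2.78e-26, edgeR). It rose 1.32-fold under IL-6 in ChimP3V3 cells (adjusted p = 1.33e-06, edgeR) and was not called in gp130:IL-6R cells (adjusted p = 0.691, edgeR). Since these 4 regulators were picked after their values were seen, the values cannot be read as support. Of the 13 tested genes of this list, 5 were higher and 8 lower in ChimP3V3 cells under IL-6, beside 31.2% and 31.6% of all genes. Irf8, Cd34, Flt3 and Ly6c2 had 0 counts in every library.

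Of 26 genes of secondary and tertiary granules and mature neutrophils 10 were tested. In ChimP3V3 cells 2 rose, Itgb2 and Pglyrp1, and 1 fell, Anxa1, with a median log2 of 0.26 over the 9 with a count. Under IL-6 8 rose in gp130:IL-6R cells and 0 fell by edgeR's test, with 0 lower also at an unadjusted p under 0.05, in DESeq2 and in limma. Of the 8, 3 passed the filter only through the IL-6 group of this line and had to be high there, which leaves 5. Anxa1, annexin A1, fell 1.20-fold in ChimP3V3 cells (adjusted p = 0.000141, edgeR) and rose 7.79-fold in gp130:IL-6R cells (adjusted p = 2.18e-17, edgeR), and its responses differed by a log2 of -3.23 (adjusted p = 3.96e-17, edgeR). Pglyrp1, a peptidoglycan-binding protein of neutrophil granules, rose 2.34-fold in ChimP3V3 cells (adjusted p = 0.011, edgeR) and 2.92-fold in gp130:IL-6R cells (adjusted p = 4.29e-15, edgeR). S100a8 and S100a9, which encode the subunits of calprotectin, were among the 3, with summed counts of 75 and 104 under IL-6, against 17 and 30 in medium. Camp, Mmp8, Chil3, Ly6g, Retnlg, Cd177 and Fpr1 had 0 counts in every library.

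Of 15 protease inhibitors 8 were tested, and 1 rose and 1 fell in ChimP3V3 cells (median log2 0.15). In gp130:IL-6R cells 2 rose and 2 fell by edgeR's test (median log2 0.24). These shares were close to those of all genes. Of the 2 that fell in gp130:IL-6R cells, Serpina3g passed the filter only through the medium group of this line. It had to be high there, which leaves 1. With DESeq2 and with limma 2 rose and 0 fell in gp130:IL-6R cells. Cst3, cystatin C, rose 1.34-fold in ChimP3V3 cells (adjusted p = 6.92e-08, edgeR) and 1.59-fold in gp130:IL-6R cells (adjusted p = 1.92e-13, edgeR). Between the lines, 3 of the 8 were higher and 2 lower in ChimP3V3 cells under IL-6, beside 31.2% and 31.6% of all genes. In medium 6 were higher and 2 lower, beside 31.7% and 33.5%. Serpinb1a, an inhibitor of neutrophil serine proteases in mice, was among the lower ones. It averaged 11.4 ± 2.12 CPM in ChimP3V3 cells and 136 ± 5.06 CPM in gp130:IL-6R cells under IL-6 (SD, n = 4 each, adjusted p = 2.26e-27, edgeR). Of 29 genes that build or sulphate glycosaminoglycan chains such as those of serglycin, 21 were tested, with 5 higher and 1 lower under IL-6 in ChimP3V3 cells (median log2 0.10) and 4 higher and 5 lower in gp130:IL-6R cells (median log2 -0.02 over the 20 with a count). Xylt1, which starts these chains, rose 1.43-fold in ChimP3V3 cells (adjusted p = 0.000621, edgeR) and fell in gp130:IL-6R cells, with a log2 of -0.40 (adjusted p = 6.02e-05, edgeR), and its responses differed (adjusted p = 1.68e-06, edgeR). Of 16 genes of heme synthesis and peroxidase folding 15 were tested, with 4 higher and 4 lower in ChimP3V3 cells (median log2 0.00) and 1 higher and 6 lower in gp130:IL-6R cells (median log2 -0.16).

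**Figure D4:**
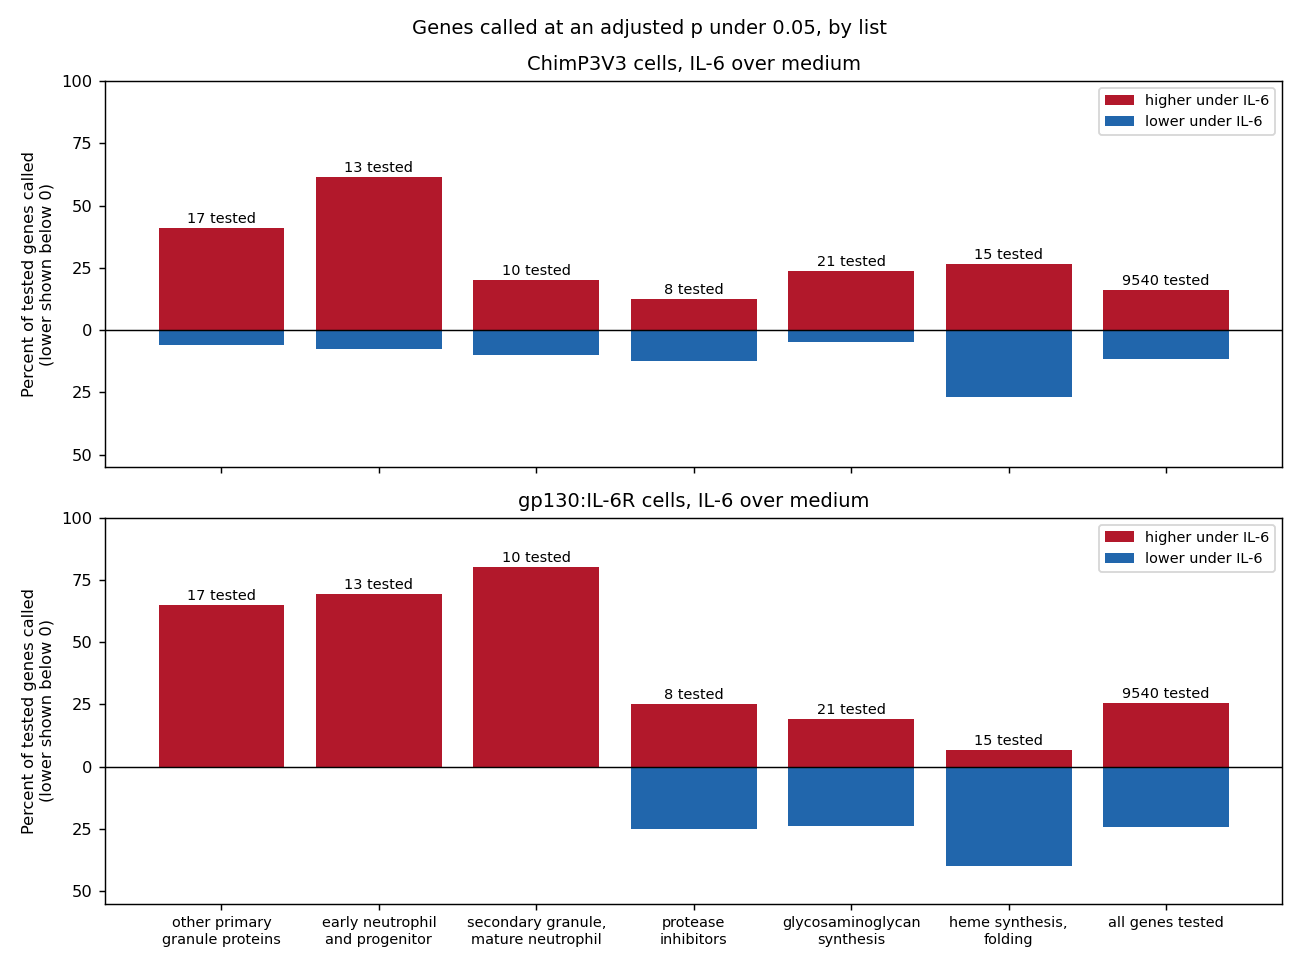
Percent of the tested genes of 6 lists, and of all 9540 genes tested, that were called higher (above 0) or lower (below 0) under IL-6 in ChimP3V3 cells (upper panel) and gp130:IL-6R cells (lower panel). In gp130:IL-6R cells no tested gene of the first 3 lists was lower, beside 24.3% of all genes. The bars of these cells include 3 of the 10 mature neutrophil genes and 2 of the 13 early genes that passed the filter only through the IL-6 group. They also include 1 of the 8 protease inhibitors, called lower, that passed it only through the medium group.

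The tested genes within 50000 bases of a member moved in both directions between the lines. Around Prtn3 and Elane, Kiss1r, a peptide receptor gene, was lower in ChimP3V3 cells by a log2 of -2.82 under IL-6 and of -3.83 in medium (adjusted p = 9.64e-11 and 4.29e-16, edgeR). Med16, a Mediator subunit gene of the same stretch, was higher in ChimP3V3 cells under IL-6 by a log2 of 0.90 (adjusted p = 7.16e-07, edgeR). Of the 5 tested neighbours of Prtn3, 2 were higher and 3 lower in ChimP3V3 cells under either treatment, and the changes of the other 3 were smaller, from a log2 of -0.66 in Arid3a to 0.34 in R3hdm4 under IL-6. Cfd, another serine protease gene just beyond Elane, had 1 count in all libraries together. Plppr3 overlaps the start of Prtn3 on the opposite strand and had 4 counts in all. The strand setting of the counting is not given in the sources used here, so reads of the pair cannot be told apart within the overlap. This overlap lies at the start of both genes, and the libraries hold the 3' ends of polyadenylated RNA. Lpo, a peroxidase gene 2015 bases from Mpo, had 0 counts in every library. Ms4a2, a mast cell receptor subunit gene 5777 bases from Ms4a3, was not tested, with summed counts of 36 in ChimP3V3 cells under IL-6 and 12 in medium, against 27 in gp130:IL-6R cells under IL-6 and 30 in medium.

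Genes whose log2(CPM + 1) over the 16 libraries ran most like each tested member were listed among 9143 genes with a mean of at least 5 CPM. For Prtn3 these were Atp2b4 (Pearson's r = 0.997), H2-K1 (0.996) and Hook1 (0.994), and for Srgn they were H2-K1 (0.993), Hhex (0.993) and Slc6a13 (0.993). For Ms4a3 they were Erp29 (0.987), Car12 (0.987) and Rsl1d1 (0.986). For Mpo they were Litaf (0.983), Ero1a (0.979) and Chd7 (0.979), and for Lyz2 they were Arhgef10l (0.963), P4hb (0.96) and Fzd4 (0.956). These values are descriptions over libraries that fall into 2 lines and share their line, treatment and depth, so a high r follows from any gap between the lines.

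Total counts ran from 1275112 to 1650348 per library, and 10968 to 11539 genes had a count. Of 16 pro-B markers, Rag1, Rag2, Blnk and Dntt had 0 counts in every library, and 7 to 9 had a count per group. Their summed level was 72.6 to 95.8 CPM in ChimP3V3 cells under IL-6 and 73.1 to 80.5 in medium, against 68.3 to 76.8 in gp130:IL-6R cells under IL-6 and 78.5 to 95.6 in medium. Erythroid markers ran opposite to the 5 tested members between the lines. All 8 tested were higher in ChimP3V3 cells by edgeR's test, beside 31.2% of all genes under IL-6 and 31.7% in medium. In ChimP3V3 cells 9 of 11 had a count, with a sum of 3481 to 3609 CPM under IL-6 and 2314 to 2486 in medium. In gp130:IL-6R cells 7 of 11 had a count under IL-6 and 8 of 11 in medium, with sums of 573 to 597 and of 670.4 to 704 CPM, and Slc4a1 was at 0 throughout. Mast cell and basophil markers had 7 of 17 genes counted in ChimP3V3 cells under IL-6 and 9 of 17 in each other group, and summed to 569 to 624 CPM in ChimP3V3 cells under IL-6 and 429.6 to 458 in medium, against 771 to 824 in gp130:IL-6R cells under IL-6 and 645 to 699.8 in medium. Most of this sum was Gata2, at 500 CPM in ChimP3V3 cells and 683 CPM in gp130:IL-6R cells under IL-6. Cpa3 ran the other way, at 59.3 CPM in ChimP3V3 cells and 0.358 CPM in gp130:IL-6R cells under IL-6. Of the 4 tested mast cell and basophil markers, 2 were higher and 2 lower in ChimP3V3 cells under IL-6, beside 31.2% and 31.6% of all genes. Mcpt8, Mcpt1, Mcpt2, Cma1, Tpsab1 and Tpsb2 were at 0. Monocyte and macrophage markers, with 6 or 7 of 15 counted per group, summed to 240.4 to 256 CPM in ChimP3V3 cells under IL-6 and 171 to 207 in medium, against 122 to 155 in gp130:IL-6R cells under IL-6 and 153 to 188 in medium, with Cd14, Mrc1, Marco, C1qc, Lyz1 and Ms4a7 at 0. T and NK cell markers summed to at most 14.4 CPM and fibroblast and epithelial markers to at most 3.39 CPM in any library. The share of counts on 13 mitochondrial genes was 1.66% to 1.75% in ChimP3V3 cells under IL-6 and 1.38% to 1.45% in medium, against 1.43% to 1.61% in gp130:IL-6R cells under IL-6 and 1.14% to 1.19% in medium. The part of these markers and shares in the results on the 7 genes was not tested.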

How the data were processed

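The deposited table holds raw read counts per gene for 16 libraries. The submitters' processing notes name GRCm39, Ensembl release 107 and CLC Genomics Workbench 23.0.4. Libraries were made with QuantSeq 3' FWD from 100 ng of total RNA and sequenced as single reads of 100 bases, per the labels' protocols. No source used here gives the strand setting of the counting. The table also holds 48 normalized columns, which were not used. A 3' tag count does not scale with transcript length, and different genes are set side by side only as shares or ratios of counts, which are not levels per length.

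Counts were scaled with TMM factors and fitted with edgeR 4.0.16 in R 4.3.3 (glmQLFit and glmQLFTest), with 1 mean per group over all 16 libraries and 12 residual degrees of freedom. Genes were kept by filterByExpr with a minimum count of 10 and a total of 15, which left 9540 of 25650. Calls are at a Benjamini-Hochberg adjusted p under 0.05. SE is the log2 fold change over the root of its F value. The 95% intervals of log2 fold changes were built from this SE and the t distribution with 12 degrees of freedom. At few counts this SE is rough. For Mpo it was 0.564 for the difference of responses but 1.34 for the response of ChimP3V3 cells alone. The steps were tested on simulated data. DESeq2 1.42.0, limma 3.58.1 on log2(CPM + 1), other scalings and filters, a replicate block and leaving out each library were the alternatives. Ratios of low counts carry exact 95% intervals from Python 3.11.15 and scipy 1.17.1, with 3 counts over a group as the limit that a count of 0 allows. Library totals of 1275112 to 1650348 give few counts to genes below 10 CPM. Promoters are RefSeq windows on GRCm38.p6, and their coordinates are not those of the counts.

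The 7 genes, the lists and the tests were chosen with earlier results of these data known. Besides the 7 genes, the text names of each list those with the smallest p-values in a line's response, up to 4, neighbours within 50000 bases, the 3 genes most like each tested member, and genes said to have been singled out after their values were seen. Other list members are named where they had 0 or few counts, or, as Serpinb1a and Ctsc, with their values in the other comparisons. Results on some list genes are not reported here.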

Additional observations from a re-analysis of the deposited data

Results flagged for a closer look

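Over 36 combinations of gene and group examined for a single library apart from the other 3, by Dixon's criterion at the 95% level, 5 stood apart, and chance gives about 1 in 20. In each of the 5, one library held the only counts of the gene in its group. Mpo reached 0.801 CPM in 1 library of ChimP3V3 cells under IL-6 and Lyz2 reached 1.60 CPM in 1 library of the same group. Ctsg reached 0.676 CPM in 1 library of ChimP3V3 cells in medium and 0.716 CPM in 1 library of gp130:IL-6R cells under IL-6. Elane reached 0.655 CPM in 1 library of gp130:IL-6R cells in medium. The IL-6 responses of Ms4a3 differed between ChimP3V3 and gp130:IL-6R cells by a log2 of 1.73, which passed the test of the difference itself.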

How the results depend on the processing

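Of 264 values of the tested genes under the other settings, 253 kept their direction and side of the threshold, 3 lost a call, 2 gained one and 6 changed sign without being called. With limma on log2(CPM + 1), 3 of the genes were called in the IL-6 response of gp130:IL-6R cells, since Ms4a3 (adjusted p = 0.0603) and Prtn3 (0.172) missed the threshold, and 2 in the difference of responses, where Lyz2 had a log2 of -1.70. With DESeq2 Mpo had an adjusted p of 0.0954 in gp130:IL-6R cells. In medium, 3 genes were called when only the groups compared were fitted, because Mpo and Lyz2 then did not pass the filter. At an adjusted p under 0.01 the responses differed for 1453 genes. The values that changed sign were Lyz2 in ChimP3V3 cells with limma (-0.0299), the Srgn difference with upper-quartile factors (-0.00854), without a filter (-0.029) and with a CPM of at least 5 (-0.028), and the Mpo difference with DESeq2 (-0.31) and limma (-0.84); for these the cause was not tested. Without a filter the differing responses split into 903 higher and 1257 lower, against 1186 and 1098.

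Leaving out each library gave 4446 to 4500 called genes in the response of gp130:IL-6R cells, 2296 to 2435 in that of ChimP3V3 cells, 2076 to 2199 in the difference, 5967 to 6056 between lines in medium and 5712 to 5808 under IL-6. The number of the 7 genes called was 5, 2 to 3, 1, 5 and 5 in these comparisons. Log2 values ran from -2.32 to 0.59 for Lyz2 in ChimP3V3 cells, from -0.0501 to 0.0315 for the Srgn difference and from -1.18 to 0.81 for the Mpo difference. With the replicate block, 4706, 2548, 2204, 6186 and 5958 genes were called, and 5, 2, 1, 5 and 5 of the 7. Same-numbered libraries correlated by -0.0411 to 0.0316 over 16 pairs, so the numbers were not taken as pairs. Depth limits Mpo, Lyz2, Elane and Ctsg.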
